A study of Mus musculus with 12 samples.

Results

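The metallothionein genes Mt1 and Mt2 were followed in white adipose tissue of mice on 2 diets. They are 2 of the 12627 genes measured in the series. All probe sets annotated to either gene alone were taken, which were 3 of the 45101 on the array, 2 of them for Mt1 and 1 for Mt2. Both genes were chosen by their difference between the diets in these same arrays, so their levels and differences are given as a description with no test. The groups were CLA-fed and LA-fed mice at 4, 12 and 24 h, with LA as the control. The labels spell out neither diet nor the fat pad, which they call RP; in fat research CLA commonly stands for conjugated linoleic acid, with LA for plain linoleic acid. Strain, sex, age, dose and the moment from which hours were counted are not given in the sources used here. Each diet and time had 2 arrays, each of RNA pooled from 5 mice, which makes 12 arrays and 60 mice. The pools are labelled biological replicates, and a pool shows the average of its mice and not their spread.

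Metallothioneins are small, cysteine-rich proteins that bind zinc and copper, and also cadmium. Mt1 and Mt2 are the widely expressed pair of the mouse family, whereas Mt3 is known from brain and Mt4 from stratified epithelium. Free zinc activates the transcription factor MTF1, which binds metal response elements in their promoters and in that of the zinc exporter Slc30a1. Glucocorticoids, interleukin 6 acting through STAT3, and oxidative stress are further known inducers of both genes.

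The promoter windows are shown because metal response elements are the best known control sites of these genes. Each runs from 250 bases before to 50 bases after the RefSeq start site on the plus strand of GRCm38.p6, at chr8:94178839-94179138 for Mt1 and chr8:94172368-94172667 for Mt2. Capitals mark every match to the metal response element core, searched on both strands as TGCGCNC and TGCACNC.
Mt1: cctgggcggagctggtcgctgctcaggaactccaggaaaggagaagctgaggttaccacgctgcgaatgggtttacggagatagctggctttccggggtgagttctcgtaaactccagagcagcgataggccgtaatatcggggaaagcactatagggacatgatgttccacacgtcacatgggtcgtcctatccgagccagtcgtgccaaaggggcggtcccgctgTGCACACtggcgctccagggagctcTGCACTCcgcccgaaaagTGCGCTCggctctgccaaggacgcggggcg
Mt2: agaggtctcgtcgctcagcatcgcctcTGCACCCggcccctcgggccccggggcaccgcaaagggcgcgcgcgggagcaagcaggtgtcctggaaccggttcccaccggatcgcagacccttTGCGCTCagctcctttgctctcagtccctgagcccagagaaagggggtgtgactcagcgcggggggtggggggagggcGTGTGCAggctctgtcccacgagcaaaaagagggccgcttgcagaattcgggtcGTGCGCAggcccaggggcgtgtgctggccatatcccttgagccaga

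The Mt1 window held 3 core matches, with their first bases at -23, 3 and 21, where 1 is the first base of the gene. The Mt2 window held 4, at -223 and -128 on the plus strand and at -50 and 5 on the minus strand. Of all 32851 promoter windows of this length, 1.97% held at least 3 such matches and 0.517% held at least 4. TGCGCNC alone was found in 15.4% of windows and TGCACNC in 12.6%, and, read on 1 strand, the same bases can match only 1 of these forms.

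Motifs of other known inducers were searched in the same way. The glucocorticoid response element, searched as the half-sites GNACA and TGTNC with 3 bases between them, matched once in the Mt1 window, at -94, and in 0.475% of all windows. The antioxidant response element core TGACNNNGC matched once in the Mt2 window, at -79, and in 12.4% of all windows. The STAT site TTCNNNGAA, present in 8.3% of windows, and the heat shock element, searched as GAA, TTC and GAA with 2 bases between neighbours and present in 0.603%, matched in neither window. No other search overlapped a core match in these windows. A match is a description of the letters and does not show that a factor binds there. Only these windows were searched, so a motif without a match here may lie beyond them. Positions hold for the RefSeq start site alone, and other start sites were not examined.

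**Figure D1:**
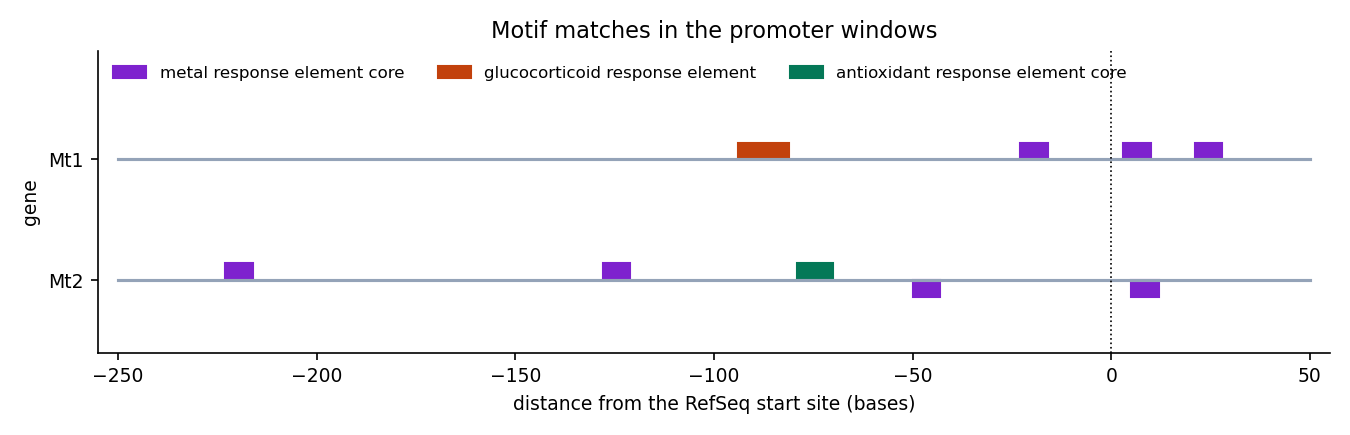
Motif matches in the promoter windows of Mt1 and Mt2, by distance in bases from the RefSeq start site (dotted line), with boxes above the line on the plus strand and below it on the minus strand. Mt1 has 3 metal response element cores and 1 glucocorticoid response element, and Mt2 has 4 cores and 1 antioxidant response element core.

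Levels are given as scaled intensity, the deposited intensity of a probe set after each array was brought to a trimmed mean of 500. Probe sets that reached 100 on fewer than 2 arrays were left out, and 26017 remained, for 12627 genes. Of the 3 metallothionein probe sets 2 remained, 1 for each gene. The other Mt1 probe set lay between -45.7 and 118.8 and reached 100 on 1 array, so it gives no usable level. Both remaining probe sets were far from the top of the scale: Mt1 stood at 5.24% to 28.9% of the highest value on its array and Mt2 at 0.984% to 22.04%. The identifier of the Mt1 probe set ends in _s_at, which marks a probe set whose probes may match more than 1 transcript, and how far it reads related transcripts was not tested.

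At 4 h the diets overlapped for both genes. Mt1 stood at 12260.1 and 12594.8 in CLA pools, against 6439.7 and 12321.6 in LA pools. Mt2 stood at 6434.9 and 9107 in CLA pools, against 1966.6 and 7988.8 in LA pools. For both genes the second LA pool lay between the CLA pools and the first LA pool lay below them.

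At 12 h both CLA pools lay above both LA pools for each gene. Mt1 stood at 12612 and 9504.5 in CLA pools, against 4027.8 and 4229.4 in LA pools. Mt2 stood at 8156.6 and 5243.8 in CLA pools, against 705.7 and 844.1 in LA pools. The LA pools were close to each other and the CLA pools differed more.

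At 24 h the groups were furthest apart. Mt1 stood at 18925.3 and 19063.9 in CLA pools, against 4013.2 and 5814.3 in LA pools. Mt2 stood at 13973.7 and 15417.6 in CLA pools, against 840.3 and 1272.3 in LA pools. The CLA pools lay close together and above every other pool of the series, for both genes.

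Separation of this kind was common in these arrays. Both CLA pools lay above both LA pools for 15.9% of all genes at 4 h, 24.2% at 12 h and 33% at 24 h. The values of Mt1 and Mt2 chose them, so nothing is read from their own separation. These are bulk samples, in which fewer cells of a type and less RNA per cell cannot be told apart.

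**Figure D2:**
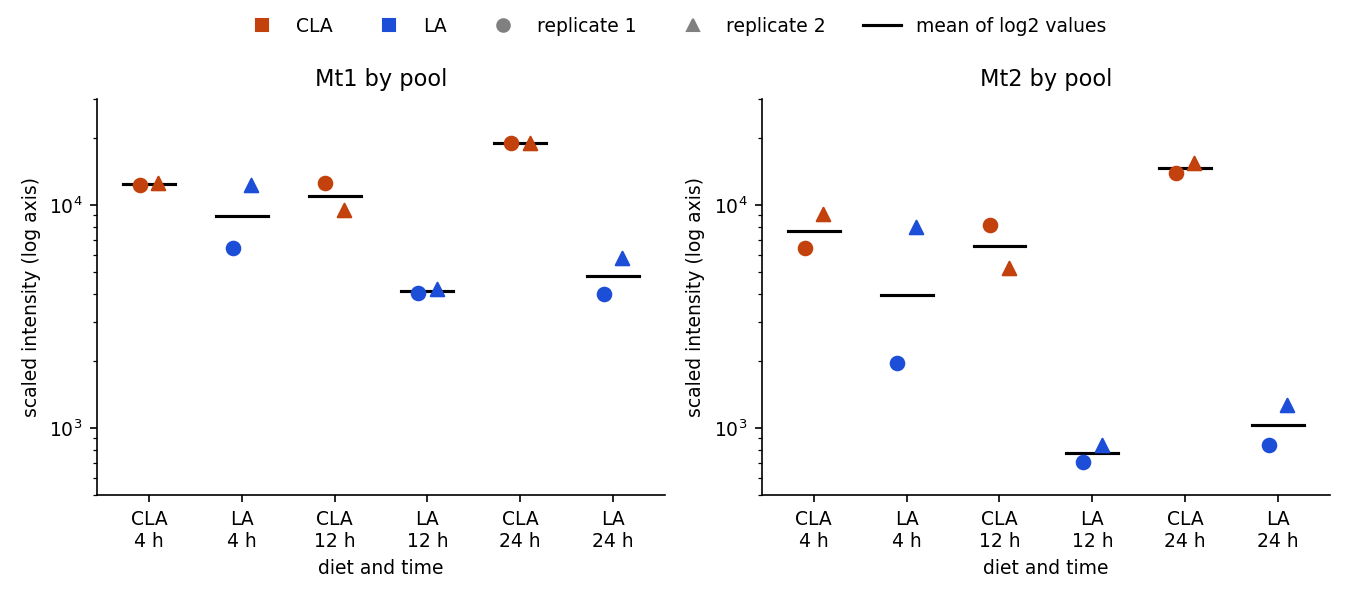
Scaled intensity (log axis) of Mt1 and Mt2 in each of the 12 pools by diet and time, with circles for replicate 1, triangles for replicate 2 and bars for the mean of the log2 values. The CLA pools of 24 h are highest for both genes, and the first LA pool of 4 h lies well below the second.

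The log2 difference between CLA and LA, taken on scaled intensity plus 16, grew with time for both genes. For Mt1 it was 0.48 ± 0.31 at 4 h, 1.40 ± 0.31 at 12 h and 1.97 ± 0.31 at 24 h (SE of the fit, n = 2 pools a group), or 1.39-fold, 2.65-fold and 3.92-fold. For Mt2 it was 0.95 ± 0.57, 3.06 ± 0.57 and 3.81 ± 0.57 at the same times, or 1.93-fold, 8.32-fold and 13.99-fold. The medians over all 12627 genes were 0.0165, -0.0236 and 0.0154.

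The log2 difference of Mt2 was 2.18 times that of Mt1 at 12 h and 1.93 times at 24 h. At 4 h it was 1.97 times, a ratio that rests on the first LA pool of 4 h, without which the differences were -0.061 for Mt2 and 0.012 for Mt1. Ranked by log2 difference from the highest, Mt2 was number 436 of 12627 genes at 4 h, 15 at 12 h and 30 at 24 h. Mt1 was number 1375, 211 and 246 at these times.

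The authors' deposited table gave Mt1 ratios of 1.46 at 4 h, 2.76 at 12 h and 4.09 at 24 h. For Mt2 the authors' deposited table gave 1.65, 8.22 and 18.01. Its headers leave the diets of the ratio unnamed, and it was read as CLA over LA from its likeness to the arrays of the same time.

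The 6 groups stood in the same order for both genes, from CLA at 24 h through CLA at 4 h, CLA at 12 h, LA at 4 h and LA at 24 h to LA at 12 h. CLA at 24 h did not overlap the next group, and neither did LA at 4 h with LA at 24 h. The neighbours CLA at 4 h and CLA at 12 h overlapped, as did CLA at 12 h with LA at 4 h and LA at 24 h with LA at 12 h. The 12 arrays spanned 4.74-fold for Mt1 and 21.4-fold for Mt2.

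The difference between diets widened by different moves before and after 12 h. Between 4 and 12 h, Mt2 moved by -0.23 on the log2 scale in CLA-fed fat and by -2.34 in LA-fed fat, which is 5.06-fold lower at 12 h than at 4 h on LA. Mt1 moved by -0.18 in CLA-fed fat and by -1.11 in LA-fed fat over that span. The size of the LA move depends on the pool of 4 h: set against the first LA pool of 4 h alone it was -1.33 for Mt2, or 2.52-fold, and -0.64 for Mt1, and against the second alone -3.34 for Mt2, or 10.2-fold, and -1.57 for Mt1. The 3′ to 5′ signal ratio for Actb also differed by time, at 3.80 to 6.41 on the 12 h arrays and 2.35 to 3.49 on the 4 h arrays, and its part in these moves was not tested.

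Between 12 and 24 h the order was the other way. Mt2 moved by 1.16 on the log2 scale in CLA-fed fat and by 0.41 in LA-fed fat. Mt1 moved by 0.79 in CLA-fed fat and by 0.23 in LA-fed fat. Of the 12-to-24 h widening, 0.75 for Mt2 and 0.57 for Mt1, the larger move was the higher CLA level.

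**Figure D3:**
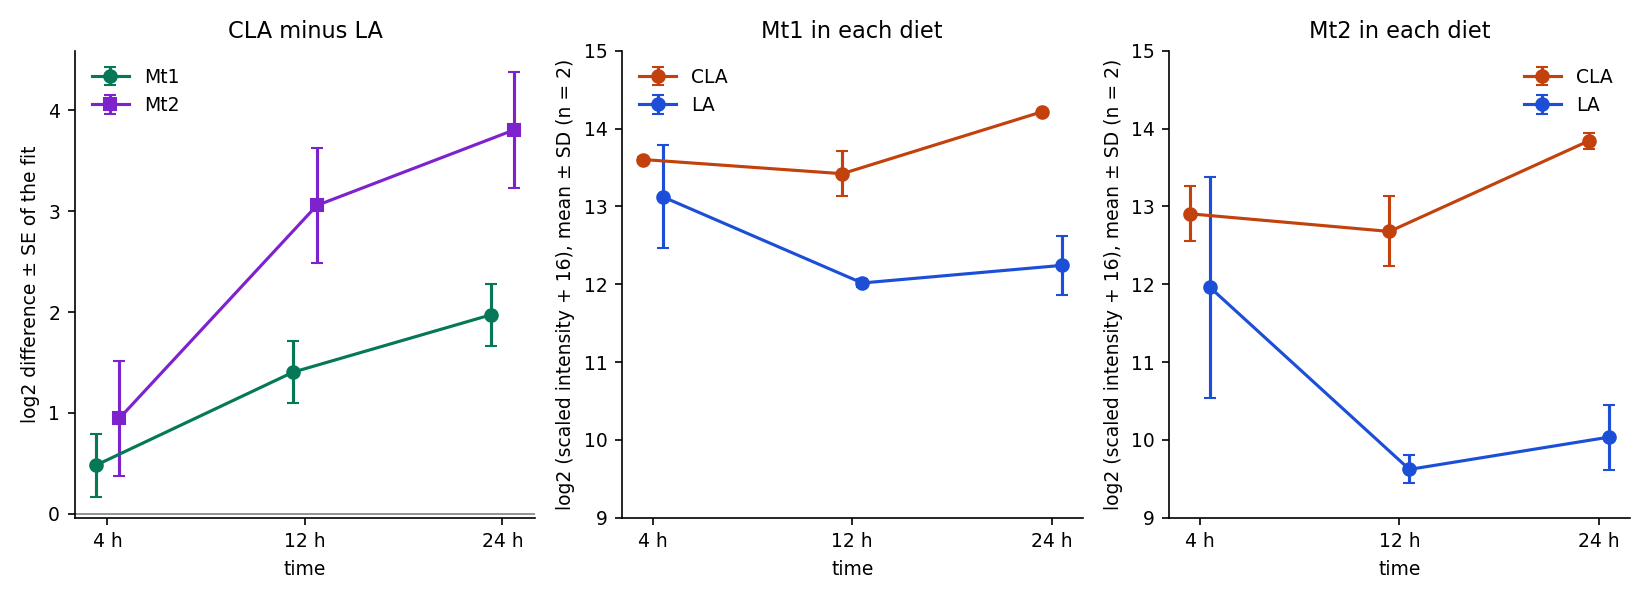
Left, CLA minus LA for Mt1 and Mt2 at 4, 12 and 24 h (log2 ± SE of the fit); middle and right, log2 of scaled intensity plus 16 in each diet as mean ± SD of 2 pools. Times are equally spaced on the axis, the CLA and LA means lie closest at 4 h, and the SD is widest for LA at 4 h.

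The 2 genes followed each other closely from pool to pool. Over the 12 arrays, log2 values of Mt1 and Mt2 had a Pearson r of 0.992 and a Spearman rho of 0.986, given as a description, since the arrays share 6 diet-by-time groups. Within groups, where diet and time are the same, the replicate difference had the same sign for both genes in 6 of 6 groups. The residual SD of the fit was 0.333 for Mt1 and 0.654 for Mt2 on the log2 scale, against a median of 0.260 over all genes. Both were noisier than most genes: 63.7% of genes had a lower residual SD than Mt1 and 87.3% a lower one than Mt2.

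The LA pools of 4 h carried much of that spread. The second pool was 4.04-fold above the first for Mt2 and 1.91-fold for Mt1. Leaving out the first LA pool of 4 h turned the Mt2 difference of that time to -0.061 and brought that of Mt1 to 0.012. Leaving out the second raised them to 1.95 and 0.95. The direction at 4 h therefore rested on 1 pool.

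Genes of the glucocorticoid list, which holds the glucocorticoid receptor, the enzyme Hsd11b1 that regenerates active glucocorticoid and known glucocorticoid-induced genes, differed between the same pools. Of its 12 genes, 11 were higher in the second LA pool of 4 h than in the first, with a median of 0.70 on the log2 scale, against 51.3% of all genes and a median of 0.0093. Among the 11, Hsd11b1, Dusp1 and Tsc22d3 differed little, by 0.14, 0.092 and 0.066. The 4 genes with the largest differences follow. The transcription factor Zbtb16 stood at 1647.4 in the second pool and 505.5 in the first. The immunophilin gene Fkbp5 stood at 2983.7 and 1400.2, the kinase Sgk1 at 2991.3 and 1366.8, and the clock gene Per1 at 475.4 and 203.8 in these pools. The medians of the heat shock, NRF2 and IL-6 lists between the pools were 0.0506, 0.0423 and 0.0059. The liver markers had a median of 0.66 with 5 of 9 higher, and the endothelial markers 0.35 with 7 of 8 higher. RNA quality, read from the 3′ over 5′ signal of the Actb controls, gave 2.82 in the second pool and 2.37 in the first. Between the CLA pools of 4 h the same named genes went both ways. Sgk1 stood at 3592.3 in the second and 1301.8 in the first, and Zbtb16 at 1994 and 1730.7. Fkbp5 stood at 2366.6 and 2981.9, and Per1 at 338.5 and 800.1. Each comparison here is of 1 pool with 1 pool and has no replicate check, and the part of these genes in the metallothionein difference was not tested.

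**Figure D4:**
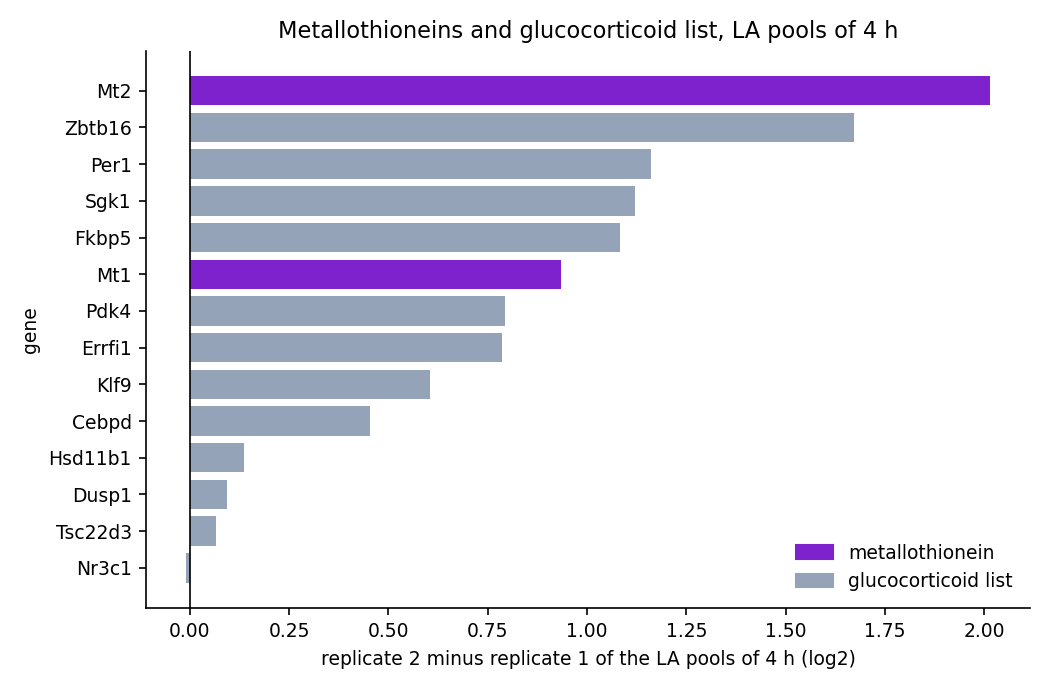
Log2 difference between the second and the first LA pool of 4 h for Mt1, Mt2 and the 12 genes of the glucocorticoid list. Mt2 has the longest bar at 2.01 and the receptor gene Nr3c1 is the one bar just below 0.

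At 24 h, where Mt1 and Mt2 were highest on CLA, genes of the same list went both ways between diets. Fkbp5 stood at 948.6 and 902.4 in CLA pools of 24 h, against 700.9 and 737.3 in LA pools of 24 h. Its difference between diets did not pass at any time (limma with Benjamini-Hochberg over all genes, adjusted p = 0.899 at 4 h, 0.692 at 12 h and 0.470 at 24 h). At 24 h, 4 of the 12 genes were higher and 3 lower in CLA-fed fat, where 10.6% and 10.9% of all genes were. The pyruvate dehydrogenase kinase Pdk4 was higher by 2.06 ± 0.28, the transcription factor Cebpd by 2.36 ± 0.40, the EGFR inhibitor Errfi1 by 2.53 ± 0.46 and the phosphatase Dusp1 by 0.91 ± 0.21. The receptor Nr3c1 fell by 0.82, Hsd11b1 fell by 0.97 and Tsc22d3, which encodes the glucocorticoid-induced leucine zipper protein, fell by 1.04. At 12 h Pdk4 alone passed, at 1.60 ± 0.28, and at 4 h none did by limma, with 1 gene at an unadjusted p under 0.05. Over all 12627 genes, 867 had such a p at 4 h. The 12 h call on Pdk4 was lost without any 1 of the 4 pools of 12 h. At 24 h the calls on Dusp1 and Nr3c1 were each lost in 3 of the 12 fits that left out 1 array. Those on Tsc22d3 and Errfi1 were lost in 2 and 1 of them.

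The other members of the family gave little. Mt4 did not exceed 85 on any array and was not tested. Mt3 stood at 399.5 and 297 in CLA pools of 4 h, against 704.8 and 843.5 in LA pools of 4 h. At 12 h Mt3 stood at 145.5 and 447.7 in CLA pools, against 36.2 and 592.5 in LA pools, and at 24 h at 271.2 and 379.1 in CLA pools, against 192.5 and 293.3 in LA pools. Its differences of -1.13 ± 0.99, 0.62 ± 0.99 and 0.41 ± 0.99 did not pass (limma, adjusted p = 0.903, 0.813 and 0.806).

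The metal sensor MTF1 was not called at any time. Mtf1 stood at 802.5 and 998.4 in CLA pools of 24 h, against 659.5 and 554.6 in LA pools of 24 h. Its differences were -0.43 ± 0.21 at 4 h, -0.49 ± 0.21 at 12 h and 0.55 ± 0.21 at 24 h (limma, adjusted p = 0.789, 0.261 and 0.0969). The other probe sets of Mtf1 gave 0.11 and 0.04 at 4 h, -0.20 and -0.20 at 12 h, and 0.22 and 0.12 at 24 h. MTF1 is known to act through zinc binding and movement to the nucleus, which mRNA levels do not show.

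Slc30a1, the zinc exporter of the cell surface and a known MTF1 target, rose in CLA-fed fat at 24 h. It stood at 1570.8 and 1532.8 in CLA pools, against 669.4 and 655.7 in LA pools, a 2.31-fold difference (1.21 ± 0.22, limma adjusted p = 0.00691). The 4 pools of 12 h gave 801 and 951.8 on CLA, against 697.2 and 765.3 on LA. At 12 h, when Mt2 was already 8.32-fold higher, Slc30a1 was 0.25 ± 0.22 higher and did not pass (limma, adjusted p = 0.621). Its second probe set gave 1.47 at 12 h and 2.20 at 24 h, so the probe sets disagree on the size at 12 h. Of the 7 genes listed for MTF1 and its targets, 3 were higher at 24 h and 0 lower, where 10.6% of all genes were higher and 10.9% lower: Slc30a1, the zinc importer Slc39a10, which MTF1 is known to repress, and the stress-responsive gene Ndrg1 at 0.87 ± 0.21. The 4 probe sets of Ndrg1 ranged from -0.17 to 0.87, and its call was lost without any 1 of the 4 pools of 24 h. None of the 7 passed by limma at 4 or 12 h, where 0 and 2 had an unadjusted p under 0.05, against 867 and 2333 of all 12627 genes.

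Of 10 zinc importers tested, 4 rose in CLA-fed fat at 24 h and 0 fell, where 10.6% of all genes were higher and 10.9% lower, and the list median was 0.40. Slc39a6 stood at 4148.6 and 5355.9 in CLA pools of 24 h, against 870.3 and 759.3 in LA pools of 24 h, a 5.71-fold difference (2.51 ± 0.21, limma adjusted p = 0.000355). Slc39a14, an importer known to respond to interleukin 6 in liver, stood at 633.7 and 615.7 in CLA pools, against 157.2 and 347.2 in LA pools, and was 2.55-fold higher (limma, adjusted p = 0.0185). The second probe set of Slc39a14 gave 0.62 at 4 h, -0.26 at 12 h and 1.19 at 24 h. The one used gave -0.47, 0.75 and 1.35, so the 2 differ in sign at 4 and 12 h. Slc39a10 was 2.05-fold higher (limma, adjusted p = 0.0125) and Slc39a8 1.62-fold (limma, adjusted p = 0.0334). The probe sets of Slc39a8 also differ in sign at 4 and 12 h. Its second one gave -0.38, -1.38 and 0.51 at 4, 12 and 24 h, against 0.09, 0.28 and 0.70 for the one used. At 4 and 12 h none of the 10 passed by limma, with 0 and 2 at an unadjusted p under 0.05, against 867 and 2333 of all 12627 genes. The call on Slc39a14 was lost without either CLA pool of 24 h, at an adjusted p of up to 0.0857 by limma. The call on Slc39a10 was lost without the first CLA or the second LA pool of 24 h, and that on Slc39a8 in 6 of the 12 fits that left out 1 array.

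Among 8 zinc exporters of the SLC30 family, Slc30a4 passed at 12 h as well as at 24 h. This transporter, known to move zinc into vesicles, stood at 4233.7 and 4006 in CLA pools of 12 h, against 1759.3 and 1993.1 in LA pools of 12 h, a 2.19-fold difference (limma, adjusted p = 0.0247). At 24 h it was 2.18-fold higher (limma, adjusted p = 0.00789). The call at 12 h was lost in 6 of the 12 fits that left out 1 array, and the call at 24 h in none of them. The other 6 exporters passed at no time.

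Of 19 iron genes tested, 1 was higher in CLA-fed fat at 4 h, and 1 was higher and 2 were lower at 12 h, where 0.0554% of all genes were higher at 4 h and 2.08% higher and 2.38% lower at 12 h. The heme oxygenase Hmox1, which frees iron from heme and is also an NRF2 target, stood at 1994.2 and 1355.6 in CLA pools of 4 h, against 385.3 and 342.2 in LA pools of 4 h. It was 4.38-fold higher at 4 h, 6.08-fold at 12 h and 7.24-fold at 24 h (limma, adjusted p = 0.0184, 0.00153 and 0.000231). The call at 4 h was lost in 6 of the 12 fits that left out 1 array, those without 1 of the LA pools of 4 or 12 h or 1 of the CLA pools of 24 h. The transferrin receptor Tfrc, through which cells take up iron, stood at 536.2 and 470.4 in CLA pools of 12 h, against 2615.4 and 3197.3 in LA pools of 12 h. It was 5.61-fold lower in CLA-fed fat at 12 h and 3.06-fold lower at 24 h (limma, adjusted p = 0.00226 and 0.00236). Its second probe set gave -0.48 at 24 h, against -1.61 for the one used.

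In all, 4 of the 19 iron genes were higher and 2 lower at 24 h, or 31.6%, against 21.5% of all genes. The phagosomal metal transporter Slc11a1 was 2.35-fold higher, the metalloreductase Steap2 at least 2.53-fold higher, with LA pools under 100 set at 100, and the iron chaperone Pcbp1 1.45-fold higher. The bound for Steap2 holds for the probe set used, at 2.25 on the log2 scale, whereas its second probe set gave 0.78. The iron regulatory protein gene Aco1 was 1.77-fold lower, though its 3 probe sets ranged from -0.93 to 0.22 and the call was lost in 4 of the 12 fits that left out 1 array. The calls on Pcbp1 and Steap2 were lost in 10 and 7 of the 12 fits that left out 1 array.

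Of 12 copper genes tested, 0 were higher and 4 lower in CLA-fed fat at 24 h, where 10.6% of all genes were higher and 10.9% lower, and the list median was -0.13. The 4 were the copper importer Slc31a1 at 1.93-fold lower, the chaperone Atox1 at 1.69-fold, the chaperone of cytochrome oxidase Cox17 at 1.58-fold and the copper regulator Commd1 at 1.74-fold. The 3 probe sets of Atox1 ranged from -1.0 to 0.43. The calls on Atox1, Cox17 and Commd1 were each lost without any 1 of the 4 pools of 24 h, and that on Slc31a1 without the second CLA pool or either LA pool of 24 h. None passed by limma at 4 or 12 h, where 0 and 1 had an unadjusted p under 0.05, against 867 and 2333 of all 12627 genes.

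Over the union of these lists, without Mt1 and Mt2, 54 genes were tested. At 24 h 11 were higher and 6 lower in CLA-fed fat, or 31.5%, against 21.5% of all genes. With a gene's probe sets averaged, 10 of the 54 passed, or 18.5%, against 18.2% of all genes. The count also moved when 1 array was left out, as did the calls over all genes. At 12 h 2 were higher and 2 lower, or 7.41%, against 4.47% of all genes, 2.08% higher and 2.38% lower. At 4 h 1 was higher, or 1.85%, against 0.0554% of all genes, and 0% of all genes were lower. The difference between diets was larger at 24 h than at 4 h for Slc30a1, Slc39a6, Slc39a10 and Slc39a14, a test of the change that 6.81% of all genes passed. It was larger at 24 h than at 12 h for Slc39a6, which 2.26% of all genes passed. The list medians were -0.0101, 0.120 and 0.0861 at 4, 12 and 24 h, against 0.0165, -0.0236 and 0.0154 over all genes.

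**Figure D5:**
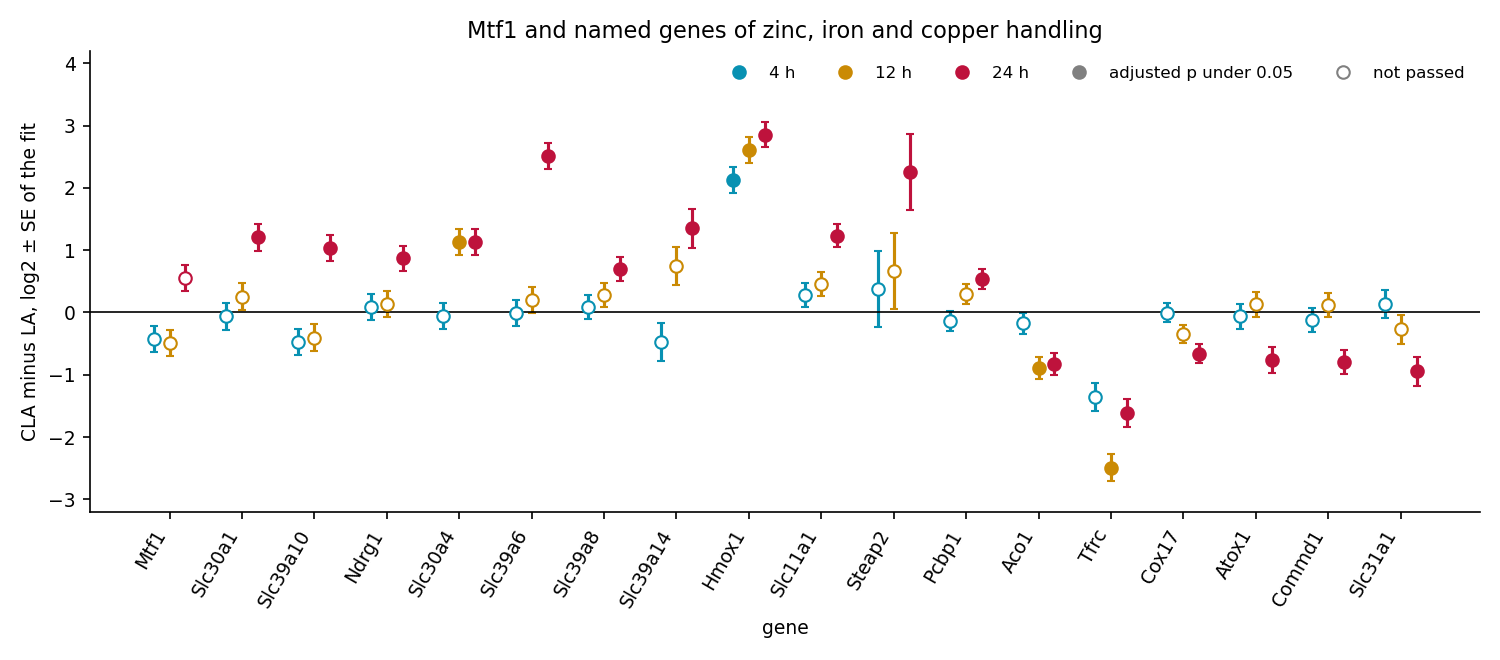
CLA minus LA (log2 ± SE of the fit) at 4, 12 and 24 h for Mtf1 and the named genes of zinc, iron and copper handling, with filled circles where limma's adjusted p was under 0.05. Hmox1 is filled at all 3 times, Tfrc is lowest at 12 h, most zinc genes are filled at 24 h only, and Mtf1 is open throughout.

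Lists of genes tied to the other known inducers differed in when they passed. For the heat shock list 1 of 11 genes was higher at 4 h, 8 at 12 h and 11 at 24 h, with medians of 0.55, 1.40 and 1.49. The chaperone Hspa1b stood at 26922.8 and 29253.4 in CLA pools of 12 h, against 1289.2 and 1645.6 in LA pools of 12 h, and was 6.64-fold, 19.1-fold and 25.2-fold higher at 4, 12 and 24 h. Its near-identical copy Hspa1a can share its signal, so the 2 may not count as separate genes. Hspa1a was 37.4-fold higher at 12 h and at least 30.8-fold at 24 h, with LA pools of 24 h set at 100. The call on Hspa1b at 4 h was lost in 10 of the 12 fits that left out 1 array, with differences of 2.22 to 3.24. That on Hsph1 at 12 h was lost in 2 of them. The small chaperone Hspb1 was 8.92-fold and 9.57-fold higher at 12 and 24 h, Hsph1 3.26-fold at 12 h and the cochaperone Dnajb1 6.68-fold at 24 h. For NRF2 and its targets 1, 3 and 6 of 11 genes were higher, the sulfiredoxin Srxn1 by 5.58-fold at 12 h and 10.2-fold at 24 h. The regulator Nfe2l2 itself, which encodes NRF2, was 1.85-fold higher at 24 h, and Gclm, a subunit of the first enzyme of glutathione synthesis, 4.83-fold at 12 h and 3.83-fold at 24 h. Txnrd1, of the same list, was 4.55-fold higher at 24 h. For the IL-6 and STAT3 list none of 12 passed by limma at 4 or 12 h, with 1 gene at an unadjusted p under 0.05 each time, and 7 were higher at 24 h. Such an unadjusted p was found for 867 and 2333 of all 12627 genes at 4 and 12 h. The feedback inhibitor Socs3 stood at 2975.7 and 3656.4 in CLA pools of 24 h, against 480.7 and 424.6 in LA pools of 24 h, or 7.09-fold. The kinase Pim1 was 5.39-fold higher, the transcription factor Stat3 1.54-fold and Bcl3 at least 5.87-fold, with LA pools set at 100. Il6 was at least 2.45-fold higher at 24 h, on the same footing. The 24 h calls on Stat3 and Bcl3 were lost in 4 and 3 of the 12 fits that left out 1 array. The background for these counts was 0.0554%, 2.08% and 10.6% of genes higher at the 3 times. The part of any of these genes in the metallothionein levels was not tested.

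The genes most like Mt1 and Mt2 over the 12 arrays were named from 10881 genes that reached 100 on at least 6 arrays. After each other, the highest Pearson r was 0.917 to Mt1, for Ppfibp1, Cd300a and Herpud1, and 0.914 to Mt2, for Spg20. Tmem37, Dym, Cd300a, Ppfibp1 and Herpud1 were among the 8 highest for both genes. Zfp36, which encodes an mRNA decay factor, and Hsp90b1, which encodes an endoplasmic reticulum chaperone, were in the set for Mt1 only, and Spg20 and Tapt1 in the set for Mt2 only. The lowest r was -0.952 to Mt1, for Ccdc28b, and -0.952 to Mt2, for Ift122. Hoxc8, Mfsd12 and Ccdc28b were among the 4 lowest for both genes. Hoxc8, a homeobox gene, stood at 2604.9 and 2581.3 in CLA pools of 24 h, against 6271 and 5807 in LA pools of 24 h. The steps in these genes were smaller than in Mt2: Spg20 differed by 0.67 on the log2 scale at 24 h and Herpud1 by 1.04. The arrays share groups, so r describes likeness over 6 diet-by-time groups of 2 pools and carries no p.

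Herpud1, which encodes an endoplasmic reticulum stress protein, also lies near the metallothionein genes on mouse chromosome 8. The order of protein-coding genes there includes Nudt21, Ogfod1, Bbs2, Mt4, Mt3, Mt2, Mt1, Nup93, Slc12a3, Herpud1 and Nlrc5. Of the neighbours outside the family 6 were tested, and 2 were higher in CLA-fed fat at 24 h, where 10.6% of all genes were. Herpud1 stood at 3011.2 and 2208.9 in CLA pools of 24 h, against 1127.7 and 1378.5 in LA pools of 24 h (1.04 ± 0.19, limma adjusted p = 0.00673). Nudt21 was higher by 0.62 ± 0.19 (limma, adjusted p = 0.0476). Nup93, the nearest neighbour of Mt1, differed by 0.60 ± 0.16 at 12 h and 0.31 ± 0.16 at 24 h and did not pass (limma, adjusted p = 0.0835 and 0.219). None of the 6 passed by limma at 4 or 12 h, where 1 and 3 had an unadjusted p under 0.05, as did 867 and 2333 of all 12627 genes.

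Besides Mt1 and Mt2, 382 tested genes held at least 3 core matches in their promoter window. At 24 h 38 of them were higher and 38 lower in CLA-fed fat, against 1095 higher and 1110 lower of the 10149 genes with a promoter window, and the shares higher were 9.95% and 10.8%. At 12 h 9 were higher and 6 lower, against 221 and 231 of the 10149, and the shares higher were 2.36% and 2.18%. At 4 h none was called, against 5 of the 10149. Slc30a1 held 2 matches, Slc30a4 3, and Mtf1 and Slc39a10 0.

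Markers of other tissues were measured beside these results. All 8 adipocyte markers on the array reached 100, with summed scaled levels of 203366.8 to 203683.7 in CLA pools of 24 h, against 285418.7 to 313424.1 in LA pools of 24 h. Liver, where metallothioneins are abundant, had 9 markers summing to 12429.3 to 12827.5 in CLA pools of 24 h, against 19312.4 to 26878 in LA pools of 24 h. At 4 h the liver markers summed to 18354.9 to 28047.7 in CLA pools, against 15374.9 to 18607.2 in LA pools, and at 12 h to 11374.7 to 15049.4 in CLA pools, against 10478.7 to 12530.9 in LA pools. Kidney markers summed to 350.5 to 599.4 over all arrays, and 6 of 9, among them Umod and Aqp2, never reached 100.

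Marker sums of several other cell types also differed between diets at 24 h, leukocytes among them. The 9 neutrophil markers summed to 2720.8 to 3578.7 in CLA pools of 24 h, against 832 to 845.3 in LA pools of 24 h, although Elane, Camp, Ltf and Cxcr2 never reached 100. At 12 h they summed to 613.6 to 674.3 in CLA pools, against 751.9 to 914.7 in LA pools. The 10 macrophage markers summed to 29879.8 to 35540.2 in CLA pools of 24 h, against 20894 to 23847.3 in LA pools of 24 h, with Marco never at 100. At 12 h they summed to 23564.2 to 26671.6 in CLA pools, against 20572.2 to 22471.5 in LA pools. The macrophage sums were already apart at 4 h, at 24412.1 to 28387.8 on CLA, against 21105.1 to 23053.4 on LA. Endothelial markers summed to 13194.4 to 13426.3 in CLA pools of 24 h, against 9443.6 to 12555.8 in LA pools of 24 h. Fibroblast markers were lower on CLA at 24 h, at 74787.7 to 76415.9, against 85673.5 to 91083.8 on LA. Skeletal muscle markers summed to 3642.7 to 5633.1 in CLA pools of 12 h, against 1429.4 to 1769.7 in LA pools of 12 h. Markers of the adrenal gland, which lies near some fat pads, summed to 3707.6 to 4319.4 in CLA pools of 24 h, against 2390.8 to 2482.9 in LA pools of 24 h, with Cyp11b1 and Hsd3b1 never at 100. Of the 5 adrenal markers tested, 1 was higher and 1 lower at 24 h, where 10.6% and 10.9% of all genes were. On the same footing, 3 of 5 neutrophil and 4 of 9 macrophage markers were higher and 0 lower. For endothelium and for fibroblasts, 1 of 8 was higher and 1 lower. At 12 h the adrenal markers summed to 1168.5 to 1668.4 in CLA pools, against 1800.2 to 2242.4 in LA pools. The part of these cells in the metallothionein levels was not tested.

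The mean deposited intensity ran from 91.468 to 125.12 and the share of probe sets reaching 100 from 44.69% to 49.82%. The Actb ratio ranged from 2.35 to 6.41, with 2.65 to 4.13 on the 24 h arrays, and was higher in replicate 2 in 6 of 6 groups. Replicates differed most in CLA at 4 h, with an SD between replicates of 0.339 on the log2 scale, against 0.157 to 0.214 in the other groups. The number of arrays limits the precision of every value here.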

How the data were processed

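Per the labels' protocols, RNA of pools of 5 mice was prepared with Trizol, and 15 µg gave biotinylated cRNA for Affymetrix arrays. The deposited table holds an intensity per array for 45101 probe sets, on a linear scale with values down to -290.31 and not scaled to a common mean. The method that summarised the probes is not given in the sources used here. Per the file headers, the authors' deposited tables for 4, 12 and 24 h hold, per probe set, a ratio with its absolute fold change, the log10 of the ratio, an error score of that log10 value and a p-value, from Rosetta Resolver. Their 6 columns of group intensities do not name the diet and were not used. Across 10271 bright probe sets, r with the CLA minus LA differences was at least 0.877 at the same time and at most 0.536 at different times, so the ratio was read as CLA over LA.

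From the intensity values, the 64 control probe sets were left out, each array was scaled to a mean of 500 after trimming 2% at each end, negative values were replaced by 0, and log2 was taken after an offset of 16. Fold changes are ratios on that scale. Of the probe sets, 34945 have a single symbol in GEO's annotation of the platform, 932 have several and 9160 have none. The probe set with the highest mean stood for each of 12627 genes. One model of all 6 groups was fitted in R 4.3.3 by limma 3.58.1 with lmFit and eBayes (6 residual and 2.16 prior degrees of freedom), two-sided, with Benjamini-Hochberg adjustment over all genes of a contrast and a threshold of 0.05. The fit was tested on simulated data. In a group with a mean under 100, values under 100 were set at 100 and the fold was written as "at least". With pools as samples, p-values measure the spread between pools.

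The members and lists were chosen with earlier results of these data known. The genes named from each list at each time were up to 4 in each direction with the largest change among those that passed and did not overlap between diets, beside Mt1 to Mt4, Mtf1, Slc30a1, Slc39a10, Slc39a14, Nr3c1, Hsf1, Nfe2l2, Il6, Stat3 and Fkbp5. Hsf1 was not analysed here. Promoter sequences are from RefSeq (GRCm38.p6). Replicate numbers were checked for pairing: differences between replicates correlated between diets at 0.314, 0.385 and -0.0903 over the 3 times, so the numbers were not taken to pair pools. Alternatives changed the scaling, the offset, the filter, the probe set rule, the arrays in the fit and the block.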

Additional observations from a re-analysis of the deposited data

Results flagged for a closer look

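For 4 zinc transporters the difference between diets was tested to differ between times, by the contrast of contrasts in the limma fit over all 12627 genes. Slc30a1 differed by 1.27 between the 24 h and 4 h effects on the log2 scale (adjusted p = 0.0484), with effects of 1.21 at 24 h and -0.06 at 4 h. Slc39a10 differed by 1.51 (limma, adjusted p = 0.0288) and Slc39a14 by 1.83 (limma, adjusted p = 0.0477) between these times. For Slc39a14 the size of the change depends on the probe set. The second gave 0.62 at 4 h and 1.19 at 24 h, against -0.47 and 1.35 for the one tested. Slc39a6 differed by 2.52 between 24 h and 4 h (limma, adjusted p = 0.00455) and by 2.31 between 24 h and 12 h (limma, adjusted p = 0.0133). Of all genes, 6.81% passed for 24 h against 4 h and 2.26% for 24 h against 12 h. Mtf1 did not pass for either, at 0.98 (limma, adjusted p = 0.0850) and 1.04 (limma, adjusted p = 0.100).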

How the results depend on the processing

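The Mt1 and Mt2 differences kept their direction with quantile normalization, no scaling and offsets of 64 and 4, and with 1 array left out except for Mt2 at 4 h. The replicate block cannot change these differences. The side of the authors' deposited ratio was itself read from these arrays, so its direction is no separate check. Leaving out 1 array at a time, Mt1 ranged from 0.012 to 0.95 at 4 h, 1.20 to 1.61 at 12 h and 1.71 to 2.24 at 24 h. Mt2 ranged from -0.061 to 1.95 at 4 h, 2.74 to 3.37 at 12 h and 3.51 to 4.10 at 24 h, with -0.061 without the first LA pool of 4 h. Calls of metal-handling genes ranged from 0 to 2 at 4 h, 2 to 4 at 12 h and 7 to 22 at 24 h, and calls over all genes from 0 to 31, 56 to 788 and 1101 to 3306. The count of 17 metal-handling genes at 24 h fell to 7 without either CLA pool of 24 h, and to 9 or 8 without the first or second LA pool of 24 h. The count of 4 at 12 h fell to 2 without any 1 pool of 12 h or 1 of the CLA pools of 24 h. With only the 4 arrays of a time in the limma fit, which leaves fewer degrees of freedom, all genes called were 0, 0 and 1315 at 4, 12 and 24 h (581, 2473 and 4341 at an unadjusted p under 0.05), and metal-handling genes 0, 0 and 7 (3, 13 and 24). Averaging a gene's probe sets left 10 metal-handling genes and 2293 of all genes at 24 h. Without scaling, 24 genes and 2 metal-handling genes were called at 4 h, and with an offset of 4 in place of 16, 4 genes were. The cause of these moves was not tested. With the replicate block, calls were 9, 499 and 2775 over all genes and 1, 4 and 19 over metal-handling genes, and the values of Mt1 and Mt2 were the same. The labels do not say whether the replicate numbers pair the pools. For the single genes named from the lists, leaving out 1 array gave 764 values on the same side of the threshold, 102 that lost it and 10 that moved. The other alternatives gave 599, 51 and 4. Some differences that had not passed changed sign without 1 array, such as Fkbp5 at 4 h (-0.17 to 0.92) and Mt3 at 12 h (-1.15 to 2.39). No named difference that had passed changed sign when 1 array was left out. The 2 pools a group limit what any difference at 4 h can show.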
